A study of Homo sapiens with 8 samples.

Results

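The angiopoietin genes described here are the ligands ANGPT1 and ANGPT2 and the receptors TEK and TIE1, 4 of the 63140 genes in the count table. They were listed because ANGPT1 counts dropped to almost nothing in the libraries labelled HOTSCRAMBL KO, and were thus chosen by the values of that comparison, which are given for all 4 as a description with no test. All 4 had a count in some library, and 2 of them, ANGPT1 and ANGPT2, passed the filter on low counts that left 24057 genes for testing.

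The series measured RNA brought down by chromatin isolation by RNA purification (ChIRP) in 8 libraries. In this assay the fixed lysate of human acute myeloid leukaemia cells is hybridised to biotinylated probes, and the RNA that stays on streptavidin beads is sequenced. The target of the probes is not stated in the labels and no input library is named there, so a level is an amount in a pull-down. The 4 groups of 2 libraries were AAVS1 KO (labelled genotype WT, Cas9 ribonucleoprotein with a guide to the AAVS1 control site), HOTSCRAMBL KO (Cas9 ribonucleoprotein with a guide to the long non-coding RNA HOTSCRAMBL), AAVS1 CBE (labelled WT, a cytosine base editor at the control site) and HOTSCRAMBL CBE (the base editor at HOTSCRAMBL). A cytosine base editor turns C into T without cutting both strands. All cells had been nucleofected and were taken on day 3 after editing. The titles give MOLM13 for replicate 1 of every group and OCI-AML4 for replicate 2, both established leukaemia lines. By these titles no line was repeated within a group. Nothing states separate cultures, and the p-values below measure only the spread between these libraries.

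Angiopoietins are secreted ligands of the receptor tyrosine kinase TEK, also called TIE2. ANGPT1 is the agonist that clusters and activates TEK, ANGPT2 is a context-dependent ligand that can block or weakly activate it, and TIE1 is a co-receptor that binds no angiopoietin strongly on its own but modulates TEK. The system is known best from endothelium, where it sets vessel stability, and in bone marrow, where ANGPT1 made by stromal and blood-forming cells acts on TEK of haematopoietic stem cells. Leukaemia cells can make the ligands too.

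Total counts ran from 20548300 to 37970163 per library. The labelled lines were little apart in these counts: 0.495% of tested genes passed between MOLM13 and OCI-AML4 libraries, with 0.237% higher in MOLM13 and 0.258% in OCI-AML4, and deviations from the group means correlated between same-label libraries at 0.0154 to 0.0411. Whether the libraries hold the lines their titles name was not tested. Of the myeloid markers, CD33, SPI1, AZU1, MPO, LYZ and PTPRC were present in every library, while CD14 and CD68 stayed at or below 2.59 and 1.26 CPM (the count relative to the TMM-scaled library total, the unit of all levels here). Of 9 endothelial markers VWF, CDH5, EMCN and ESAM were at or below 1.61 CPM in every library, PLVAP, ROBO4 and CLDN5 reached 1.84, 2.58 and 4.94 CPM in their highest library, and PECAM1 and ENG, which myeloid cells also make, carried most of the sum.

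ANGPT1 (ENSG00000154188) lies on the minus strand of chromosome 8 at 107249482 to 107498055 in GRCh38. Its 11 merged exons add up to 7128 bases, and no other annotated gene overlaps its span, so the missing strand information of the counts does not blur its reads with those of a partner. In AAVS1 KO it had 547 counts in the MOLM13 library and 283 in the OCI-AML4 library, and in HOTSCRAMBL KO 0 and 2 counts in the same order. With AAVS1 CBE the counts were 306 and 222, and after base editing of HOTSCRAMBL they were 590 and 432. The HOTSCRAMBL KO libraries were the only ones near 0, and the lowest of the other 6 held 222 counts.

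On the scaled level, ANGPT1 stood at 21.4 and 11.3 CPM in AAVS1 KO, a mean of 16.4 ± 7.15 (SD, n = 2), against 0 and 0.0893 CPM in HOTSCRAMBL KO. Under the MOLM13 label HOTSCRAMBL KO had no count, so no single fold can be given. The exact 95% counting interval, used also for the folds that follow, starts there at 114-fold lower than in AAVS1 KO. Under the OCI-AML4 label the ratio was 127-fold, with a 95% counting interval of 34.7 to 1051. Summed over both labels it was 345-fold, with an interval of 95.2 to 2852. These intervals cover counting error only and take each count as independent. Both reads of a pair were counted, so intervals over read pairs would be wider. The values are also the ones that led to the choice of the gene. In bulk libraries, fewer cells that contain an RNA and less of it per cell cannot be told apart.

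The same values were set beside those of genes at least as abundant, as a description: ANGPT1 was picked for this drop and the level is its own, so the count restates that choice. In AAVS1 KO 7819 tested genes had a mean of at least 415 counts, the mean of ANGPT1 there, and ANGPT1 was the only one with 3 or fewer counts in both HOTSCRAMBL KO libraries (0.0128%). The opposite pattern, at least 415 counts in HOTSCRAMBL KO and 3 or fewer in both AAVS1 KO libraries, was found for 0 of 7303 genes. For the base editor the numbers were 0 of 8488 downward and 0 of 8580 upward, and between the controls 0 of 7819 and 0 of 8488. All but the first of these counts were added after the values had been seen.

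**Figure D1:**
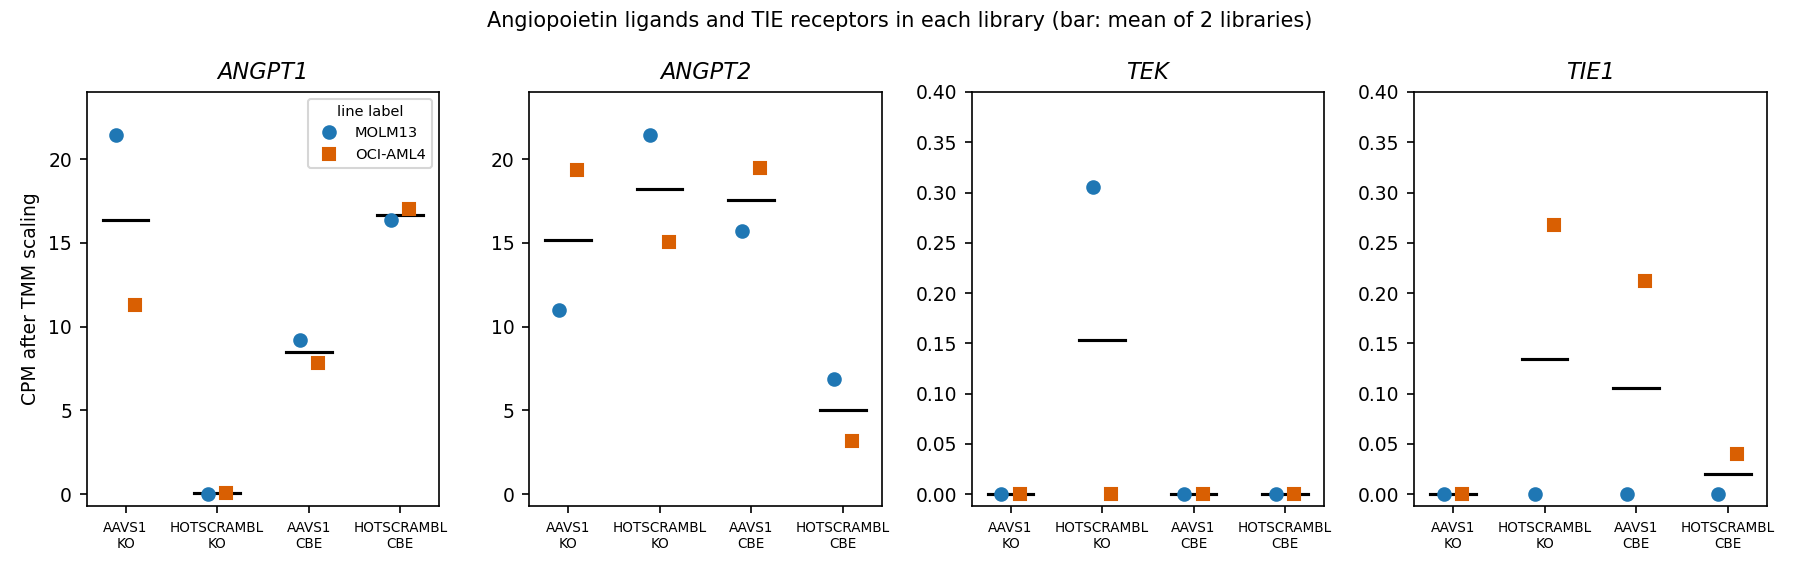
Level of each gene in CPM after TMM scaling (vertical axis) in the 4 groups, with 1 point per library, shaped and coloured by the labelled line, and a bar for the mean of 2 libraries; the axes of TEK and TIE1 end at 0.40 CPM. ANGPT1 lies at 0 and 0.0893 CPM in HOTSCRAMBL KO, and ANGPT2 is lowest in HOTSCRAMBL CBE at 6.89 and 3.15 CPM.

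With base editing ANGPT1 did not drop. Its level was 9.17 and 7.84 CPM in AAVS1 CBE, a mean of 8.50 ± 0.945 (SD, n = 2), and 16.3 and 17.0 CPM in HOTSCRAMBL CBE, a mean of 16.7 ± 0.464. Both edited libraries were above both controls, but how many of all tested genes separate in this way was not counted. This comparison shares no library with the one that chose the genes. At a log2 change of 0.95 (SE 0.39) it missed the threshold (adjusted p 0.154 in edgeR, unadjusted p 0.0228), in a comparison where 8.83% of the 24057 tested genes passed. HOTSCRAMBL CBE reached the mean level of AAVS1 KO, and the AAVS1 KO libraries alone spanned 11.3 to 21.4 CPM. Whether the effects of both editors on ANGPT1 differ was not tested, because the KO values chose the gene.

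**Figure D2:**
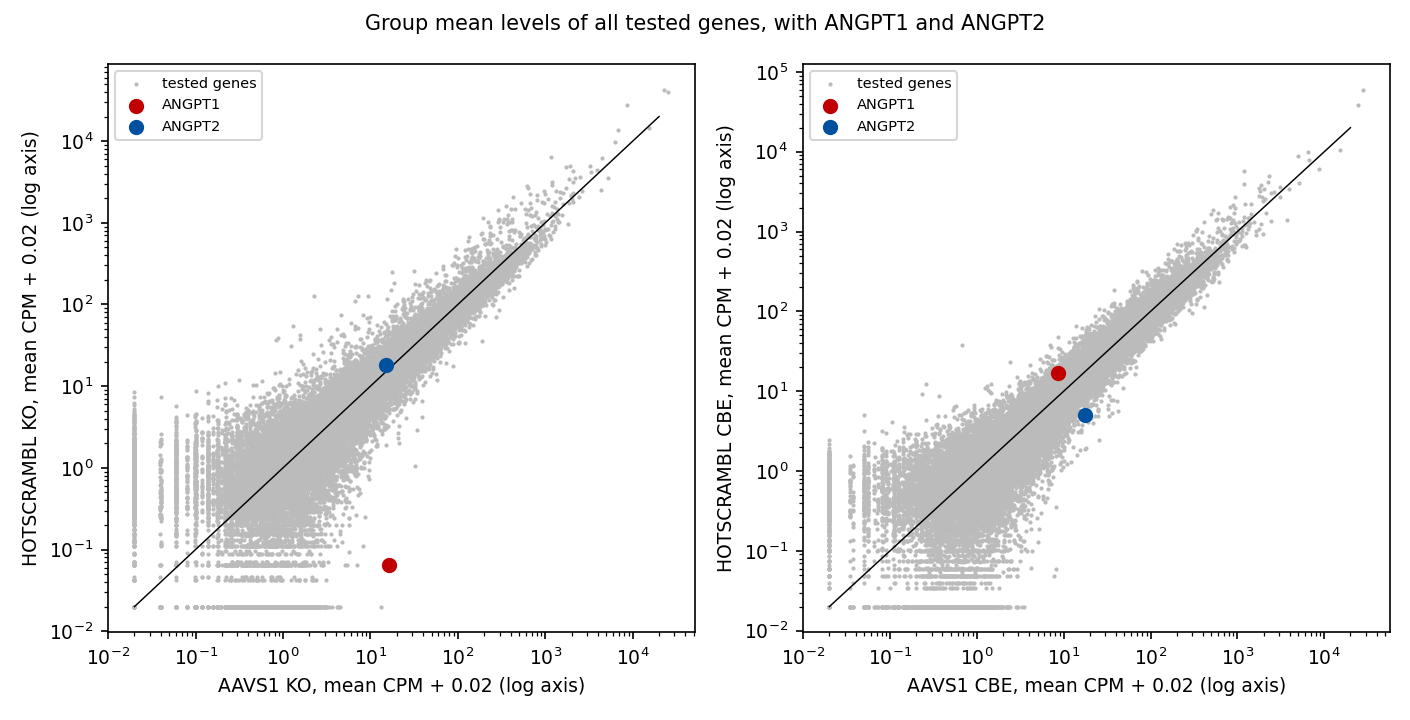
Mean level of every tested gene in the AAVS1 group (horizontal axis) against the HOTSCRAMBL group (vertical axis) for KO on the left and CBE on the right, in CPM plus 0.02 on log axes, with the line of equality. ANGPT1 (red) lies far below the line with KO, from 16.4 to 0.0447 CPM, and above it with CBE; ANGPT2 (blue) lies below it with CBE.

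ANGPT2 (ENSG00000091879), the second ligand, is also on the minus strand of chromosome 8, at 6499632 to 6563409. In AAVS1 CBE it had 523 and 552 counts, which is 15.7 and 19.5 CPM and a mean of 17.6 ± 2.69 (SD, n = 2). In HOTSCRAMBL CBE it had 249 and 80 counts, 6.89 and 3.15 CPM, a mean of 5.02 ± 2.65. Both edited libraries were below both controls, a separation that was not counted over all tested genes either. ANGPT2 fell by 1.71 on the log2 scale (SE 0.448, edgeR adjusted p 0.014), and 4.27% of all tested genes were called lower in this comparison. The ratio of edited to control was 0.44 (95% counting interval 0.377 to 0.512) for MOLM13 and 0.162 (0.126 to 0.205) for OCI-AML4. These intervals cover counting error only and hold no spread between libraries. Whether the pairs differ was not tested.

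That call needed all 4 base editing libraries, and a fit of only those 4 did not give it (log2 fold change −1.72, edgeR adjusted p 0.132). Without AAVS1 CBE replicate 1 the log2 fold change was −1.90 with an edgeR adjusted p of 0.109, and without AAVS1 CBE replicate 2 it was −1.53 (0.187). Without HOTSCRAMBL CBE replicate 1 it was −2.58 (0.0871), and without replicate 2 of that group −1.24 (0.252). Over all alternatives tried the adjusted p ran from 8.37e-04 with DESeq2 to 0.252.

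With KO, ANGPT2 had no common direction. The MOLM13 pair went from 11.0 to 21.4 CPM and the OCI-AML4 pair from 19.3 to 15.1 CPM. The groups overlapped, at 15.2 ± 5.89 CPM in AAVS1 KO and 18.2 ± 4.49 in HOTSCRAMBL KO (SD, n = 2).

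ANGPT2 sits within the span of MCPH1, a gene on the opposite strand that codes for the chromosome condensation protein microcephalin, and 658 of its 6794 exon bases are also exon of MCPH1. Counts were made without strand, so reads from unspliced MCPH1 RNA over ANGPT2 exons would count as ANGPT2. MCPH1 (ENSG00000147316, chromosome 8, 6406592 to 6648508) stood between 110.2 and 155.5 CPM in the 8 libraries. With CBE it missed the threshold at −0.31 (SE 0.133, adjusted p 0.18 in edgeR), but passed with DESeq2 (−0.32, adjusted p 0.00868) and without scaling factors (−0.45, edgeR adjusted p 0.0319). Per 100 MCPH1 counts there were 10.1 and 14.1 ANGPT2 counts in the AAVS1 CBE libraries against 5.43 and 2.86 after HOTSCRAMBL CBE. MCPH1 counts are over its exons, so this ratio cannot show how many ANGPT2 counts came from unspliced MCPH1 RNA. That share was not tested. In AAVS1 KO the ratio of ANGPT2 to 100 MCPH1 counts was 8.31 and 16.4, and in HOTSCRAMBL KO 14.2 and 10.9.

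Of the other genes annotated on the minus strand that overlap the span of MCPH1, 4 were tested and 2 passed downward with CBE. Over all tested genes 4.27% passed downward in this comparison, and no rate is drawn from 4 genes. The counts carry no strand, so reads from unspliced MCPH1 RNA over exons of these minus-strand genes within that span would count as theirs. ENSG00000288076 (chromosome 8, 6572571 to 6576219) spans 9.16 to 12.81 kb beyond the ANGPT2 start, which is 6563409 on the minus strand. This gene lies wholly within the span of MCPH1 and shares 0 exon bases with another gene. It fell from 3021 and 3526 counts to 1632 and 1019 (log2 change −1.30 with SE 0.182, adjusted p 1.42e-05 in edgeR). It kept its call under all alternatives tried, with the highest adjusted p at 0.0467. MCPH1-AS1 (ENSG00000249898, 6617310 to 6708224), an antisense RNA, had a log2 change of −1.31 (SE 0.366, adjusted p 0.0221 in edgeR) and lost its call when any base editing library was left out, with adjusted p from 0.171 to 0.272. MCPH1-DT was at −1.61 and did not pass (edgeR adjusted p 0.124), and ENSG00000271743 was at −0.13 (edgeR adjusted p 0.961). ENSG00000253550, too low to be tested, had 0 and 3 counts in AAVS1 CBE and 10 and 22 after HOTSCRAMBL CBE. With KO none of these genes beside ANGPT2 passed, the largest log2 fold change being 4.11 for ENSG00000271743 (edgeR adjusted p 0.0805), which had 140 counts in 1 library and 12 or fewer in the other 3 of that comparison.

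**Figure D3:**
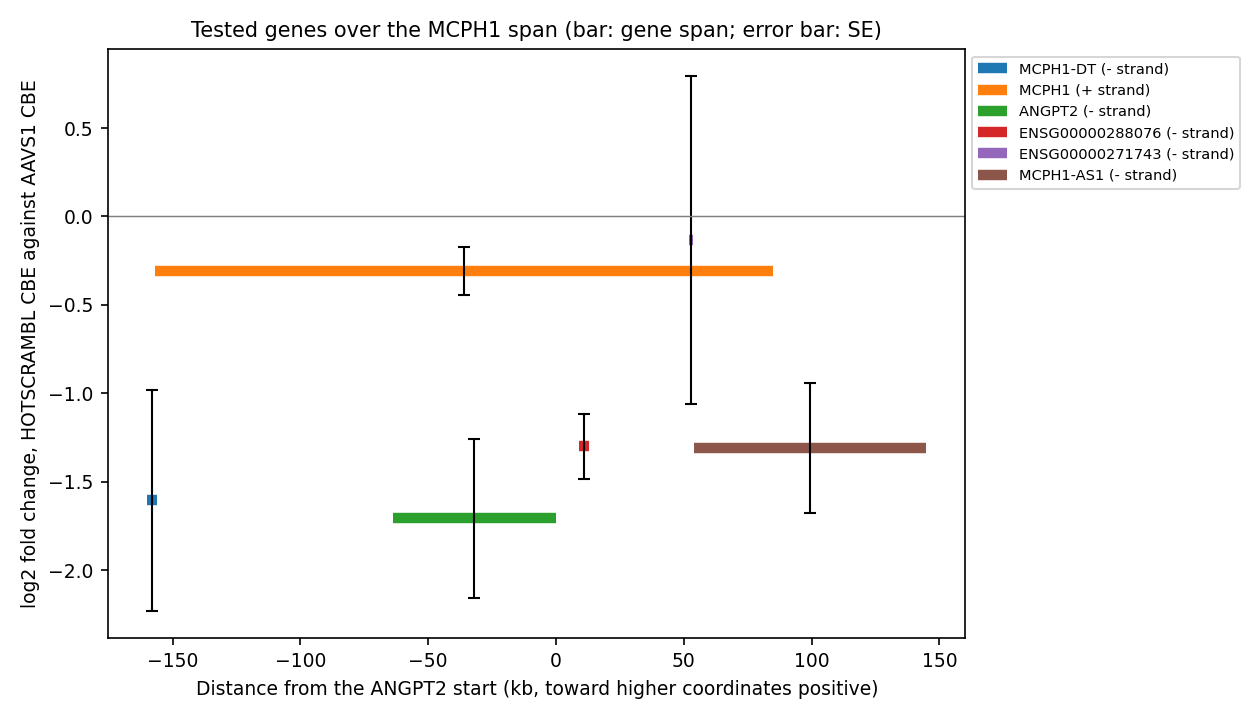
Log2 fold change of HOTSCRAMBL CBE against AAVS1 CBE (vertical axis, with SE) for the 6 tested genes over the MCPH1 span, each drawn as a bar from its first to its last base in kb from the ANGPT2 start (horizontal axis). ANGPT2, ENSG00000288076 and MCPH1-AS1 lie at −1.71, −1.30 and −1.31, and MCPH1, annotated on the other strand, at −0.31. Counts were made without strand.

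Because both ligands share a receptor, their levels were also set against each other per kilobase of exon. The ratio of ANGPT1 to ANGPT2 was 1.86 and 0.557 in AAVS1 KO and 0.558 and 0.383 in the base editing controls. With HOTSCRAMBL edited it was 0 and 0.00566 for KO and 2.26 and 5.15 for CBE. The KO ratios follow from the ANGPT1 counts that chose the genes. On the same scale of CPM per kilobase, 43.4% of tested genes were below ANGPT1 in the mean of the 4 AAVS1 libraries and 50.9% below ANGPT2, so both ligands were near the middle of the tested genes.

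The receptors were close to absent from the pull-down. TEK (ENSG00000120156, chromosome 9, 27109141 to 27230174, plus strand) had 6 counts in the HOTSCRAMBL KO library labelled MOLM13 and 0 in the other 7. TIE1 (ENSG00000066056, chromosome 1, 43300982 to 43323108, plus strand) had 6 counts in HOTSCRAMBL KO, 6 in AAVS1 CBE and 1 in HOTSCRAMBL CBE, all in libraries labelled OCI-AML4, and 0 in the rest. With counts taken as independent, a count of 0 allows up to 3 counts, which is 0.0831 to 0.153 CPM in these libraries. Both reads of a pair were counted, so the limit is higher than that. Both genes failed the filter on low counts and have no test with either editor, and no difference between groups was detectable at this depth. ANGPT4, the remaining human angiopoietin, had between 0 and 26 counts and did not pass with KO or CBE (edgeR adjusted p 0.719 and 0.519). PTPRB, a phosphatase that acts on TEK in endothelium, had 450 to 1097 counts and log2 fold changes of 0.94 with KO (edgeR adjusted p 0.0552) and 0.04 with CBE (edgeR adjusted p 0.959).

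Neither ligand passed between the labelled lines. ANGPT1 had a log2 change of 0.35 (SE 0.312, adjusted p 0.792 in edgeR) and ANGPT2 of −0.07 (SE 0.29, edgeR adjusted p 0.979).

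The neighbours of each gene were taken as the nearest 3 tested genes on either side. Around ANGPT1 only EIF3E, a translation initiation factor subunit (ENSG00000104408, chromosome 8, 108162787 to 108443496), passed. It rose by 0.85 on the log2 scale with CBE (SE 0.115, edgeR adjusted p 9.41e-06), from 203 and 224 CPM to 391 and 374 CPM, and had 0.26 with KO (edgeR adjusted p 0.222). ABRA and RSPO2, the nearest tested genes on either side, did not exceed 3.13 CPM and 2.65 CPM in any library. Around TEK none of 6 passed with either editor. Around TIE1, EBNA1BP2 and CDC20 passed with CBE at 0.91 and 0.97 (edgeR adjusted p 0.0484 and 0.0478), close to the threshold. EBNA1BP2 lost its call under 11 alternatives and CDC20 under 15, up to adjusted p of 0.521 and 0.434 without HOTSCRAMBL CBE replicate 1.

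The genes most like ANGPT1 across the 8 libraries, among 9512 tested genes of at least its mean level, were VEGFA, ARID1B, HOXA-AS2, CIT and SHANK1. Pearson correlations of log2(CPM + 0.5) were 0.991, 0.991, 0.988, 0.987 and 0.984, as a description over libraries that share their groups. They rest largely on the HOTSCRAMBL KO values that chose ANGPT1, so the ranking favours genes lower with KO and restates that choice. Without the HOTSCRAMBL KO libraries the same genes had correlations of 0.835, 0.871, 0.721, 0.777 and 0.823 over 6 libraries. Their rank among all genes over those libraries was not taken. None of them reached the floor as ANGPT1 did. VEGFA, for example, had 7248 and 7932 counts in HOTSCRAMBL KO, and HOXA-AS2 had 294 and 400.

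The wider pathway was read from 6 lists with 103 genes, of which 78 were tested. With KO 6 of the 78 passed upward and 12 downward (23.1%), beside 8.76% of all tested genes (4.51% upward and 4.25% downward), and with CBE 7 upward and 3 downward (12.8%), beside 8.83% (4.56% upward and 4.27% downward). The median log2 fold change of the 78 was −0.05 with KO and 0.01 with CBE, against −0.01 and −0.02 over all tested genes. The lists were chosen with earlier results known, and whether call rates depend on expression level was not tested.

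Among the other angiogenic ligands and receptors 9 of 18 genes were tested, and with KO 2 passed upward and 2 downward. VEGFA (ENSG00000112715), the main endothelial growth factor, fell from 719 and 698 CPM to 369 and 354 CPM (log2 change −0.97 with SE 0.0965, adjusted p 4.40e-08 in edgeR), and with CBE it stood at 661 and 637 CPM in the controls against 707 and 772 CPM (log2 fold change 0.19, edgeR adjusted p 0.252). EPHB4 (ENSG00000196411), a receptor of venous endothelium and blood progenitors, fell from 37.1 and 31.0 CPM to 9.38 and 7.15 CPM with KO (log2 change −2.05 with SE 0.363, adjusted p 2.83e-04 in edgeR). Its ligand EFNB2 (ENSG00000125266) moved the other way with KO, from 0 and 78 counts to 750 and 832 counts (fitted log2 change 4.60 with SE 0.561, adjusted p 1.62e-06 in edgeR). That size depends on the control library without counts and was 3.56 without AAVS1 KO replicate 1 and 13.1 without AAVS1 KO replicate 2. DESeq2 gave an adjusted p of 0.226, against 0.0081 or less under the other alternatives, and 36.4% of the exon bases of EFNB2 are shared with ENSG00000284966. With CBE none of the 9 passed. NRP1, a co-receptor of VEGFA, was the fourth gene called with KO, at 3.22 (edgeR adjusted p 0.0464), with 4 and 30 counts in AAVS1 KO and 191 and 66 in HOTSCRAMBL KO.

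Of the adaptors and effectors downstream of TEK 30 of 33 were tested. With KO 1 passed upward and 3 downward, and with CBE 4 upward and 2 downward. RPS6KB1 (ENSG00000108443), the S6 kinase of the growth pathway below AKT, rose from 227 and 280 CPM to 412 and 552 CPM with KO (log2 change 0.92 with SE 0.108, adjusted p 6.75e-07 in edgeR). AKT1, the kinase that carries the survival signal of TEK, had log2 fold changes of −0.64 with KO and −0.64 with CBE (edgeR adjusted p 0.0302 and 0.0171), and SOS1, a RAS exchange factor, −0.92 with KO (edgeR adjusted p 3.74e-04). The third downward with KO was TNIP2, at −0.71 (edgeR adjusted p 0.0429). With CBE the kinase FYN rose from 28.5 and 35.7 CPM to 69.2 and 80.2 CPM (log2 change 1.22 with SE 0.221, adjusted p 4.18e-04 in edgeR). The adaptor GRB2 and the GTPase NRAS passed upward with CBE at 0.59 and 1.40, and DOK2, the adaptor that docks on phosphorylated TEK, passed downward at −0.72 (edgeR adjusted p 7.68e-04, 0.0155 and 0.0106).

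**Figure D4:**
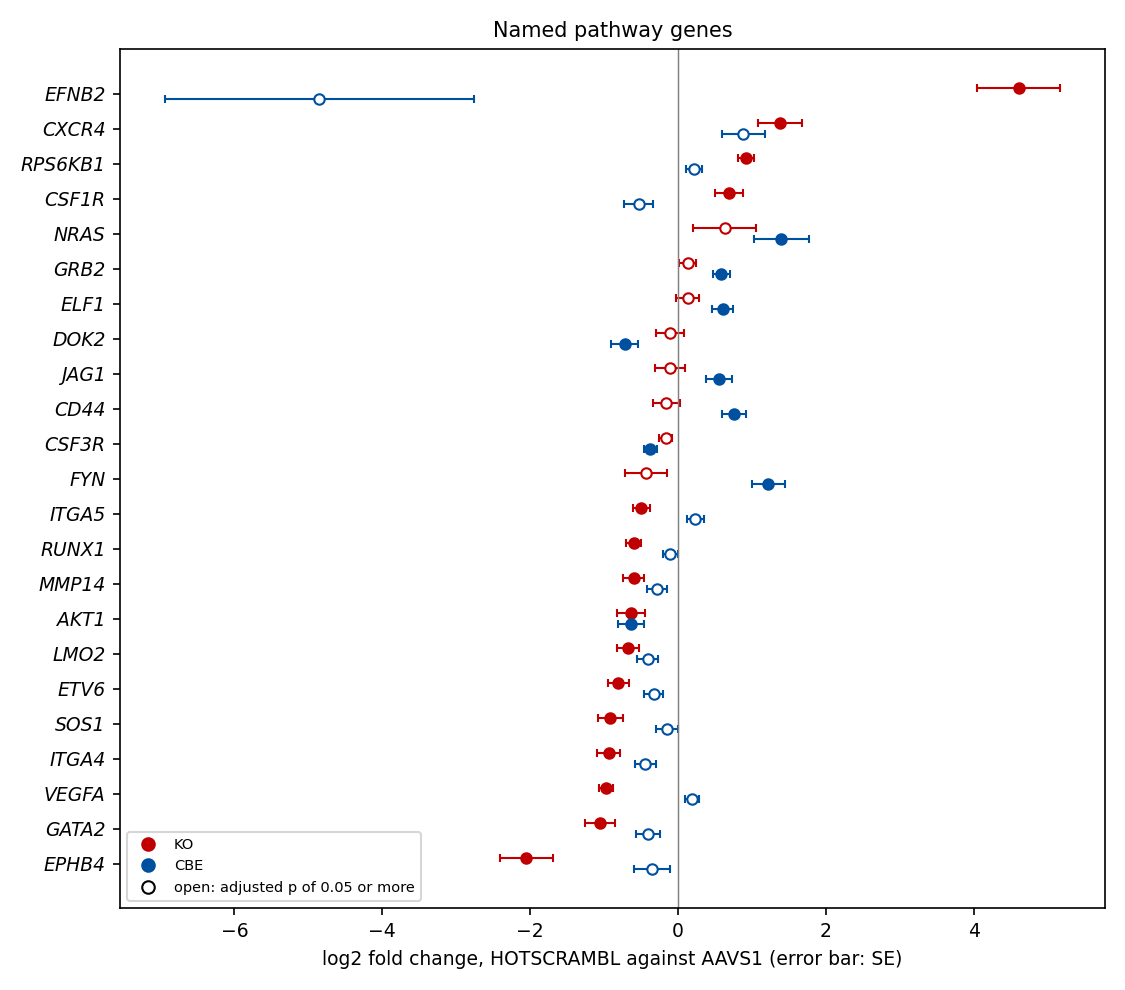
Log2 fold change (horizontal axis, with SE) of HOTSCRAMBL against AAVS1 for KO in red and CBE in blue, for the pathway genes named here by rule from either comparison; filled points have an edgeR adjusted p under 0.05. EFNB2 lies at 4.60 and EPHB4 at −2.05 with KO, and AKT1 is the only gene filled for both.

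The receptor-level partners had 8 of 9 genes tested. With KO 2 passed downward, the integrin ITGA5, through which angiopoietins can also bind cells, at −0.50 (edgeR adjusted p 0.00692) and the membrane protease MMP14 at −0.60 (edgeR adjusted p 0.00697), and with CBE 0 of 8 passed. Of the 8 angiopoietin-like genes, secreted relatives that do not bind TEK, 6 were tested and none passed with either editor. ANGPTL6 came closest, going from 142 and 155 counts to 31 and 42 with CBE (log2 fold change −2.02, edgeR adjusted p 0.125).

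Of the transcription factors of the ETS, GATA and hypoxia families 12 of 15 were tested, and with KO 1 passed upward and 4 downward. GATA2, a factor of blood stem cells, fell from 100.9 and 83.0 CPM to 51.0 and 37.8 CPM (log2 change −1.06 with SE 0.199, adjusted p 6.12e-04 in edgeR). ETV6, RUNX1 and LMO2 had −0.81, −0.60 and −0.67 (edgeR adjusted p 3.74e-04, 2.08e-04 and 0.00388), and EPAS1, a hypoxia factor that is active in endothelium, was the one upward, at 1.60 (edgeR adjusted p 0.0368). With CBE only the ETS factor ELF1 passed, at 0.60 (edgeR adjusted p 0.00453). The factors ERG, TAL1 and GATA1 were at or under 4 counts in every library.

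Among 20 niche ligands and receptors 13 were tested, with 2 upward and 1 downward for KO and the same numbers for CBE. With KO the chemokine receptor CXCR4, which holds blood cells in marrow, was at 1.38 and the monocyte receptor CSF1R at 0.69 (edgeR adjusted p 0.00281 and 0.0227), while the integrin ITGA4 was at −0.94 (edgeR adjusted p 1.44e-04). Of the exon bases of ITGA4, 26.4% are shared with CERKL. With CBE the adhesion receptor CD44 and the Notch ligand JAG1 passed at 0.76 and 0.56 and the receptor CSF3R at −0.38 (edgeR adjusted p 0.00182, 0.0443 and 0.00658).

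The calls of the pathway genes differed in how far they depended on single libraries. Of 15 named for KO, VEGFA, RPS6KB1, EPHB4 and EFNB2 (4 genes) kept the call whichever library was left out, and of 10 named for CBE 0 did. For KO, ITGA4 and RUNX1 missed without AAVS1 KO replicate 1 (edgeR adjusted p 0.06 and 0.0776), ETV6 without AAVS1 KO replicate 2 (0.0716), SOS1 without HOTSCRAMBL KO replicate 2 (0.0561), and GATA2 without AAVS1 KO replicate 1 or HOTSCRAMBL KO replicate 2 (0.059 and 0.0522). CXCR4 missed without the same pair of libraries as GATA2 (0.153 and 0.125), MMP14 without AAVS1 KO or HOTSCRAMBL KO replicate 1 (0.227 and 0.179), LMO2 without either AAVS1 KO library or HOTSCRAMBL KO replicate 1 (up to 0.104), and ITGA5 without either AAVS1 KO library or HOTSCRAMBL KO replicate 2 (up to 0.232, then at −0.33). CSF1R was at 0.41 without AAVS1 KO replicate 2 (0.449) and AKT1 at −0.42 without HOTSCRAMBL KO replicate 1 (0.396), and both missed without several other libraries too. For CBE, FYN and GRB2 missed without AAVS1 CBE replicate 1 (0.0691 and 0.0587), and CD44 without replicate 1 of either CBE group (up to 0.171). ELF1 and DOK2 missed without any CBE library but AAVS1 CBE replicate 1 (up to 0.193 and 0.284), and CSF3R, NRAS and JAG1 without any CBE library (up to 0.163, 0.37 and 0.276). JAG1 lost its call under 14 of 16 alternatives, among them other or no scaling factors (0.0517 and 0.154), no filter (0.0516) and limma-voom (0.0694). AKT1 was at −0.32 without AAVS1 CBE replicate 1 (0.554) and missed without other libraries as well. TNIP2, NRP1 and EPAS1, near the threshold with KO, missed without most single libraries. Without HOTSCRAMBL KO replicate 2 TNIP2 was at −0.48 and EPAS1 at 0.85 (0.342 and 0.512), and without AAVS1 KO replicate 1 NRP1 was at 1.28 (0.754). None of the 25 calls named by rule changed direction under any alternative. Endothelial markers summed to 125.0 to 142.1 CPM in AAVS1 KO and 185 to 211 CPM in HOTSCRAMBL KO. The higher sum came mostly through PECAM1 (log2 fold change 0.74, edgeR adjusted p 0.00124). ENG (log2 fold change −0.05, edgeR adjusted p 0.947), CLDN5, VWF and PLVAP did not pass. Of the 9 myeloid markers 1 passed upward with KO, the lysozyme gene LYZ at 2.20, and 1 downward, the granule protein gene AZU1 at −0.89 (edgeR adjusted p 9.41e-13 and 5.08e-08). MPO and ITGAM were at −0.75 and −0.84 without passing (edgeR adjusted p 0.0696 and 0.1), and the median of the list was −0.09. Their part in the KO values was not tested.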

How the data were processed

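The deposited table holds raw whole-number read counts per gene for 8 libraries. featureCounts 2.0.6 had assigned aligned reads to Ensembl 112 genes (GRCh38), per the file headers without a strand option, with reads of a pair counted singly, and with reads at several positions or over several genes not counted. Duplicate removal is not given in the sources used here. The broken records of 2 genes were rejoined, and 62541 identifiers matched a symbol. 0 library columns were left unused.

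Groups and pairing came from the sample titles. Deviations from group means correlated between groups at 0.0154 to 0.0411 across tested genes; the labelled line is the pairing the titles state, so the replicate number stayed in the model as a block. Within each group the chi-square per degree of freedom between libraries was 35.0 to 41.9, beyond counting noise for reads taken as independent; repeat preparations of 1 culture were not tested for. The test was edgeR 4.0.16 under R 4.3.3 (filterByExpr at a minimum count of 10, TMM, the robust quasi-likelihood F-test without its legacy method) on a model of 4 groups plus labelled line leaving 3 residual degrees of freedom. Benjamini-Hochberg adjustment ran over all tested genes, with calls at 0.05. Each SE was back-calculated as the absolute log2 fold change divided by the square root of the F statistic, and was not taken from the fit itself. Levels are CPM after TMM scaling. DESeq2 1.42.0 and limma-voom 3.58.1 were alternatives. Named pathway genes were up to 15 of smallest p per comparison past the threshold; TNIP2, NRP1, EPAS1, ANGPTL6 and PTPRB were named after their values were seen. One gene that the rule names for CBE is counted but not reported here.

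The members and lists were chosen with earlier results of these data known.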

Additional observations from a re-analysis of the deposited data

Results flagged for a closer look

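Effects of the same guide target with both editors were compared for the genes named above. ANGPT1 was lower in both HOTSCRAMBL KO libraries and higher in both HOTSCRAMBL CBE libraries than in the control library of the same label, and the log2 ratios of summed counts differed by −9.39 (KO minus CBE); that difference was not tested.

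For the pathway genes named by rule, the difference of log2 fold changes, KO minus CBE, was tested with edgeR, and 8 genes passed. They had been named for passing with KO or CBE in these same libraries, which favours a difference. How many of all tested genes passed this test was not counted. Unadjusted edgeR p was under 0.05 for 3399 of the 24057. VEGFA differed by −1.16 (adjusted p 2.87e-06), EPHB4 by −1.70 (adjusted p 0.0352), FYN by −1.65 (adjusted p 0.00778), CD44 by −0.92 (adjusted p 0.0331) and ITGA5 by −0.73 (adjusted p 0.0101). RPS6KB1 differed by 0.70 (adjusted p 0.00664), CSF1R by 1.22 (adjusted p 0.0093) and EFNB2 by 9.45 (adjusted p 0.00416), the last with libraries at 0 counts in both comparisons.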

How the results depend on the processing

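Fits without the replicate block called 1734 genes with KO and 1641 with CBE and changed no call of ANGPT1 or ANGPT2 (with no replicate block ANGPT2 was at −1.72 with CBE). A fit of only the 4 libraries of a contrast called 661 and 528 genes, and ANGPT2 with CBE, at −1.72, no longer passed (edgeR adjusted p 0.132). The same fit ended 6 of the 15 calls named for KO and 9 of the 10 named for CBE. DESeq2 called 4150 with KO, 3351 with CBE and 715 for the labelled line, where limma-voom called 250 and the legacy quasi-likelihood method, an alternative chosen after seeing the data, 193. Without scaling factors the median of all genes shifted to −0.17 with KO and −0.153 with CBE, and the share of calls that were higher went from 51.5% to 33.1% and from 51.6% to 32.6%, so directions are relative to TMM scaling. Leaving out 1 library gave 701 to 1679 calls with KO, 579 to 1935 with CBE and 26 to 58 for the labelled line. The fitted log2 fold change of ANGPT1 with KO, which depends on the prior count, was −8.28 and ran from −12.0 to −7.26 when 1 library was left out. That of ANGPT1 with CBE kept its sign and missed the threshold throughout, with adjusted p from 0.129 to 0.563, and that of ANGPT2 with CBE ran from −2.58 to −1.24 when 1 library was left out. Between labelled lines the sign of ANGPT2 changed to 0.113 with DESeq2, to 0.114 with the legacy method, and the value ran from −0.273 to 0.199 when 1 library was left out. Of the other genes named, AKT1, TNIP2 and NRP1 with KO and CSF3R, JAG1, EBNA1BP2 and CDC20 with CBE lost their calls without the replicate block (adjusted p 0.0522, 0.0626, 0.0725, 0.0537, 0.0803, 0.0567 and 0.064). The cause of these shifts was not tested. TEK and TIE1 have no fitted value because they failed the filter.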
